A study of Mus musculus with 3 samples.

Results

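Neutrophil granule and calgranulin genes encode the antimicrobial proteins that neutrophils carry in their granules and cytosol. The set held 10 genes, S100a8, S100a9, Mpo, Elane, Camp, Ngp, Ltf, Lcn2, Mmp8 and Retnlg. The genes were chosen by name, with earlier results of these data known. Of these, 9 had a probe set annotated to them alone, 1 each, among 18193 genes with such a probe set, and no probe set carried the name Retnlg alone. All 9 passed a filter that left out the dimmest 40 percent of probe sets, as did 12721 genes in all.

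Expression was measured on single-colour arrays in splenic follicular regulatory T (Tfr) cells, T cells that carry Foxp3 and act inside B cell follicles. The Rptor-null group was 2 pools of 8 C57BL/6 mice each, with a floxed Rptor gene deleted by CD4-Cre, a Cre active throughout the T lineage from the thymus on. The WT group was 1 pool of 4 C57BL/6 mice, with no Cre or floxed allele named. Both groups were taken at day 8 after immunization with OVA, depleted of lineage-positive cells with antibodies not named, and sorted on CD4, CD44, GITR, CD25 and CXCR5. Rptor encodes raptor, a subunit of the kinase complex mTORC1, and the comparison addressed expression in Tfr cells that lack it.

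Neutrophils load their granules in sequence as they mature in the bone marrow. Azurophil granule genes such as Mpo and Elane are transcribed first, in promyelocytes, then specific granule genes such as Ltf, Camp, Ngp and Lcn2, and later gelatinase granule genes. S100a8 and S100a9 form the cytosolic heterodimer calprotectin, which binds calcium, zinc and manganese and signals through the receptor Tlr4 when released. T cells are not a usual source of these transcripts, while monocytes and macrophages make some of them, among them S100a8, S100a9 and Lcn2.

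The promoters of the 2 members that passed the test, in opposite directions, are shown as the 250 bases before the start of each gene, from RefSeq on GRCm38.p6, with the letters of 2 myeloid motifs in capitals. Capitals mark TTNNGNAA, the core of sites of C/EBP factors, which drive granule genes, or GAGGAA, a core of sites of PU.1, read on both strands.
Mmp8, chr9:7558179-7558428, plus strand: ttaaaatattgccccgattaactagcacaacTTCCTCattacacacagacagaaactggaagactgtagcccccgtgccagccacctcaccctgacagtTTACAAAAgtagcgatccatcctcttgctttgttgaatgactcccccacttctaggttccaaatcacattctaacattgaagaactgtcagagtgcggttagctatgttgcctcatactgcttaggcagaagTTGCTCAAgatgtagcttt
Lcn2, chr2:32387740-32387989, minus strand: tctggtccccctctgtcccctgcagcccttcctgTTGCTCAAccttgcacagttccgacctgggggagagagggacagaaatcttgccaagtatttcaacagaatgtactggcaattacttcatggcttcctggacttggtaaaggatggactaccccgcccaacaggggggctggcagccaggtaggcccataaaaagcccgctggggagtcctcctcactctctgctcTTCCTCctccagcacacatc
The Mmp8 window held 2 matches to the C/EBP letters and 1 to the PU.1 letters, and the Lcn2 window held 1 of each, with no match overlapping another. Both windows share the run TTGCTCAA. Among all 32851 promoters of this length, 36.8% held the C/EBP letters and 23.3% the PU.1 letters. Of the 10 member promoters, 7 held the C/EBP letters and 6 the PU.1 letters. A TATA box, searched as TATAAA on both strands, was in 1 of them, that of S100a8, and in 12.4% of all promoters.

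Mmp8, the neutrophil collagenase, was 1.77-fold higher in Rptor-null pools than in the WT pool, and Lcn2, a siderophore-binding lipocalin, was 1.52-fold lower. Neither calgranulin passed the test, nor did Mpo, Elane, Camp, Ngp or Ltf. Of the 9 measured members, 1 was higher in Rptor-null pools, 1 was lower and 7 did not pass the test, against 3.93% higher and 11.1% lower of all 12721 genes tested. The median log2 difference was -0.21 for the members and -0.06 for all genes tested. Both Rptor-null arrays lay below WT for 7 of the 9 members, against 48.7% of all genes, and above it for 2, against 32.8%. Each difference is on the scale of log2(intensity + 16), which understates the change of dim genes, and was tested with limma and Benjamini-Hochberg adjustment over all genes at a threshold of 0.05.

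The brightest probe set of Rptor itself read 353 and 412 in Rptor-null pools, against 365 in WT, and where it lies relative to the floxed part is not known here, so it checks nothing about the deletion. With 1 WT array, the spread came from the 2 Rptor-null arrays alone and WT was assumed to vary like them. Fewer cells of a type and less RNA per cell cannot be told apart in such pools. Over all genes, 500 were higher and 1411 lower, or 539 and 766 after quantile normalization. The 9 spike-in control probe sets of BioB, BioC, BioDn and CreX, transcripts added to the hybridization mix on this array type, read 1.94 to 7.10 times their WT level on the Rptor-null arrays. The ratio of 3' to 5' signal of Gapdh was 1.94 and 2.58 on the Rptor-null arrays and 1.11 on the WT array. The part of these array measures in the results below was not tested.

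**Figure D1:**
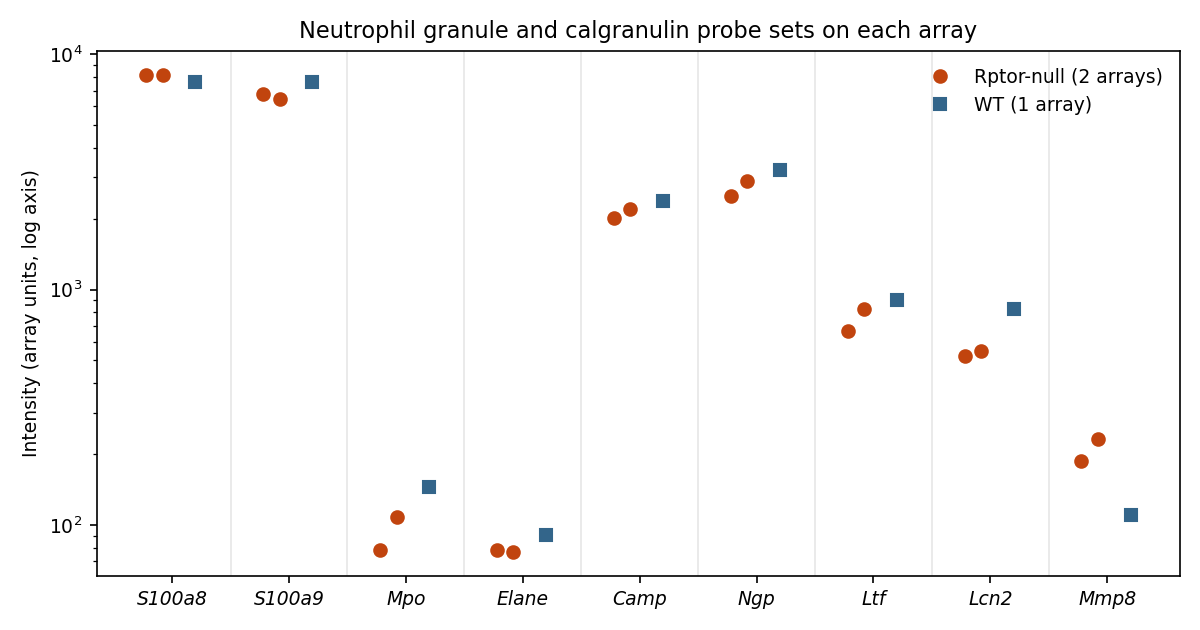
Intensity in array units (log axis) of the 9 measured members, with 2 Rptor-null arrays as circles and 1 WT array as a square to their right. Mmp8 lay higher on both Rptor-null arrays, Lcn2 lower, and S100a8 nearly level; heights of different probe sets do not compare the genes.

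Among the calgranulins, S100a8 read 8161 and 8193 on the Rptor-null arrays, against 7644 on the WT array. Both Rptor-null values lay above WT and within 31.9 units of each other. For S100a8 the log2 difference was 0.10 ± 0.08 (SE; adjusted p = 0.458), and its 95% interval ran from 0.94-fold to 1.21-fold of WT. The S100a8 probe set is of the class that can match more than 1 transcript.

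S100a9, the partner of S100a8 in calprotectin, read 6760 and 6440 in Rptor-null pools, against 7630 in the WT pool. Both Rptor-null arrays lay below WT, on the other side from S100a8. Its log2 difference was -0.21 ± 0.08 (SE; adjusted p = 0.135), with a 95% interval from 0.76-fold to 0.99-fold. The gene lies beside S100a8 on chromosome 3, with 0 protein-coding genes between them in RefSeq.

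Receptors and binding partners of the calgranulins moved in both directions. Of 8 such genes tested, 3 were higher, 2 lower and 3 did not pass. Tlr4, the receptor for endotoxin and calprotectin, read 188 and 228 in Rptor-null pools, against 115 in the WT pool (1.70-fold higher, adjusted p = 0.0264). Tlr4 did not pass with every probe set fitted on its own (adjusted p = 0.0523), which tested 22376 probe sets in place of 12721 genes. The 2 kept probe sets of Tlr4 had log2 differences of 0.77 and 0.90. Its coreceptor Cd14 was 1.87-fold higher (adjusted p = 0.00654), at 517 and 556 in Rptor-null pools against 279.8 in WT. Cd36, a scavenger receptor, was 1.94-fold higher, at 90.8 and 95.4 in Rptor-null pools against 40.4 in WT. Bsg, which encodes the transmembrane glycoprotein basigin, was 2.06-fold lower, at 373 and 379 in Rptor-null pools against 792 in WT. Of 7 tested genes of the wider S100 family, S100a6 was lower (3014 and 2952 in Rptor-null pools, against 4638 in WT; adjusted p = 0.00563) and 6 did not pass. S100a4 read 8525 and 8386 in Rptor-null pools and 9836 in WT (adjusted p = 0.106).

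Neither azurophil granule member passed the test. Mpo, the peroxidase that makes hypochlorous acid, read 78.0 and 107.9 in Rptor-null pools, against 145 in the WT pool. Both Rptor-null arrays lay below WT, and the gap between them, 29.9 units, was nearly as wide as the 37.4 units from the nearer one to WT. On the log2 scale the test of Mpo gave -0.58 ± 0.20 (SE; adjusted p = 0.101), with a 95% interval from 0.48-fold to 0.93-fold. Leaving out the first or the second Rptor-null array gave -0.38 or -0.78.

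Elane, the serine protease neutrophil elastase, read 77.9 and 76.8 in Rptor-null pools, against 90.3 in WT. The Rptor-null arrays differed by 1.07 units, and both lay below WT by at least 12.4 units. For Elane the test gave -0.19 ± 0.16 on that scale (SE; adjusted p = 0.478). The wider azurophil list, which includes Mpo and Elane, had 9 genes tested. Of these, 0 were higher or lower and 9 did not pass, with a median of -0.12. The 7 genes beside the members had a median of 0.019. Prtn3, the protease proteinase 3, read 55.5 and 92.0 in Rptor-null pools against 129.9 in WT (adjusted p = 0.0913). Ctsg, cathepsin G, read 71.0 and 85.2 in Rptor-null pools against 101 in WT (adjusted p = 0.257). Lyz1, a lysozyme gene, lay the other way, at 29766 and 33231 in Rptor-null pools against 25568 in WT (adjusted p = 0.0595). It passed with the 60th percentile filter (adjusted p = 0.029), and its probe set is of the class that can match related genes such as Lyz2.

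The specific granule members held both called genes. Mmp8 rose in Rptor-null pools. It read 187 and 231 there, against 110.2 in the WT pool. The Rptor-null arrays were 43.1 units apart, and the lower one was 77.2 units above WT. The log2 difference was 0.83 ± 0.18 (SE; adjusted p = 0.0218), with a 95% interval from 1.34-fold to 2.36-fold.

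Lcn2, a lipocalin that binds bacterial siderophores and so withholds iron, fell 1.52-fold in Rptor-null pools. It read 524 and 550.2 there, against 826 in the WT pool. The Rptor-null arrays were 25.9 units apart and at least 276 units below WT. The log2 difference was -0.61 ± 0.11 (SE; adjusted p = 0.0151), with a 95% interval from 0.55-fold to 0.79-fold. Quantile normalization gave -0.49 (adjusted p = 0.042).

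Camp, the precursor of the antimicrobial peptide cathelicidin, read 2019.9 and 2210.2 in Rptor-null pools, against 2387 in WT. Both arrays lay below WT, by less for the nearer one (177 units) than their own gap of 190.3 units. For Camp the log2 difference was -0.17 ± 0.10 (SE; adjusted p = 0.285).

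Ngp, a cystatin-related protein of specific granules, read 2501 and 2890.2 in Rptor-null pools, against 3234 in WT. Here too the gap between the Rptor-null arrays, 389 units, was wider than the 343 units from the nearer one to WT. For Ngp the log2 difference was -0.26 ± 0.11 (SE; adjusted p = 0.153). Ltf, which encodes the iron-binding protein lactoferrin, read 669 and 829.8 in Rptor-null pools, against 905 in WT. Its Rptor-null arrays were 161 units apart and the nearer one 75.1 units below WT. The test of Ltf gave -0.27 ± 0.14 on the log2 scale (SE; adjusted p = 0.253).

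The first Rptor-null array read lower than the second for 7 of the 9 members, all but S100a9 and Elane. The share among all genes was not counted. Their median log2 difference was -0.076 with the second Rptor-null array left out and -0.041 with the first left out. Among all genes, the median log2 difference also moved with level. Of 5 bins of equal size by level, the brightest had a median of -0.11 and held S100a8, S100a9, Camp, Ngp and Ltf, and the next had -0.15 and held Lcn2. The middle bin had -0.14 and held Mmp8, and the one below it had -0.005 and held Mpo and Elane.

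**Figure D2:**
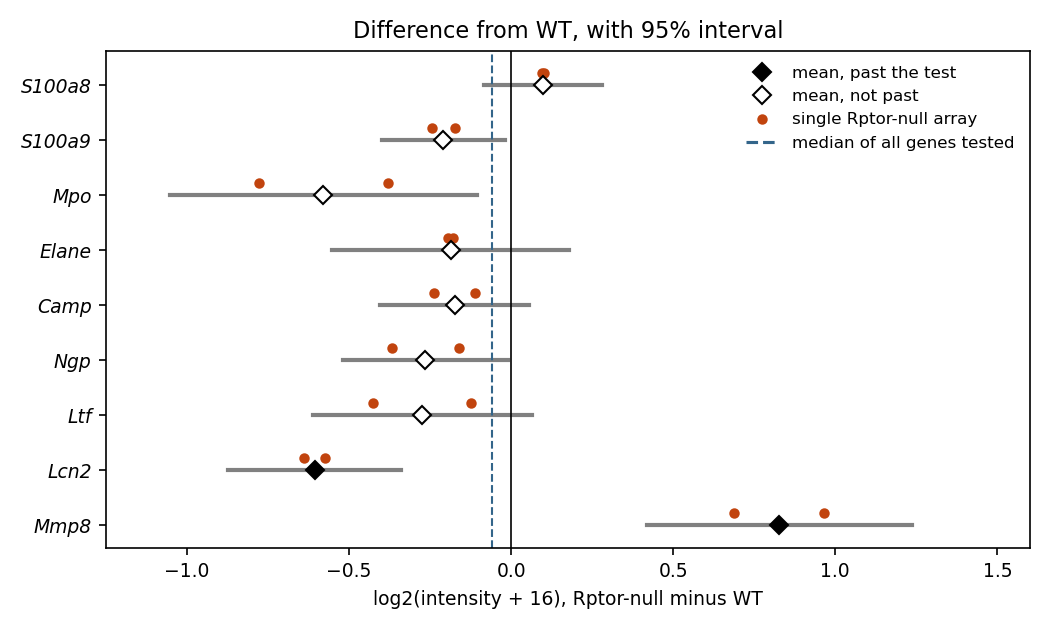
Difference of log2(intensity + 16), Rptor-null minus WT, for the 9 measured members: diamonds are means, filled where past the test, bars 95% intervals from limma, circles the 2 Rptor-null arrays and the dashed line the median of all genes tested. Mmp8 (0.83) and Lcn2 (-0.61) are the filled diamonds, and the intervals of S100a8, Elane, Camp and Ltf include 0.

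Other genes of the specific granule list varied among themselves. Of 9 tested beside the members, 2 were higher, 1 was lower and 6 did not pass. Chil3, a chitinase-like protein of neutrophils and macrophages, rose 2.06-fold, to 4668 and 4959 in Rptor-null pools against 2329 in WT (adjusted p = 0.00277). Cybb, the catalytic subunit of the phagocyte NADPH oxidase, was 1.64-fold higher on its brightest probe set (adjusted p = 0.00462). Its 3 kept probe sets, averaged, did not pass (adjusted p = 0.221) and ranged from -0.28 to 0.71 on the log2 scale. Its partner Cyba was lower, at 3800 and 4360 in Rptor-null pools against 5338 in WT (adjusted p = 0.0448). With quantile normalization it did not pass (adjusted p = 0.0916). Cd177, a neutrophil surface glycoprotein, read 249 and 234 in Rptor-null pools against 186 in WT (adjusted p = 0.161).

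In the gelatinase granule and secretory vesicle list, 3 of 6 tested genes were higher, 0 lower and 3 did not pass, with a median of 0.40. Slc11a1, a metal transporter of phagosomes, rose 1.92-fold, to 905 and 1017 in Rptor-null pools against 493 in WT (adjusted p = 0.00502). Fpr2, a chemotactic receptor for formyl peptides and for cathelicidin, rose 1.42-fold, to 531 and 555 in Rptor-null pools against 378 in WT (adjusted p = 0.0318). Fpr2, with 1 kept probe set, did not pass with every probe set fitted on its own (adjusted p = 0.0579) or without a variance trend (adjusted p = 0.0630). Cfp, the complement factor properdin, was 1.68-fold higher on its brightest probe set, but its 2 probe sets averaged did not pass (adjusted p = 0.116). Mmp9, the gelatinase of these granules, chosen after its values were seen, read 109 and 140.1 in Rptor-null pools, against 155 in WT (adjusted p = 0.341).

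Inhibitors and binding partners of the granule proteins had 3 of 11 tested genes higher, 1 lower and 7 not past. Slpi, an inhibitor of neutrophil elastase, rose 1.53-fold, to 2910.4 and 3130.0 in Rptor-null pools against 1970.1 in WT (adjusted p = 0.00804). Cst3, the protease inhibitor cystatin C, was 1.46-fold higher (adjusted p = 0.00759), and did not pass without a variance trend (adjusted p = 0.0527). Lrp1, an endocytic receptor that takes up lactoferrin and spent proteases, was 2.28-fold higher, at 787 and 905 in Rptor-null pools against 362 in WT. This was the brighter of 2 kept probe sets, whose log2 differences were 0.53 and 1.19. Stfa3, a stefin, was 1.62-fold lower (69.2 and 88.4 in Rptor-null pools, against 137 in WT; adjusted p = 0.0423). With quantile normalization it did not pass (adjusted p = 0.0638).

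Surface receptors used by neutrophils were higher in 5 of 14 tested cases and lower in 1, with 8 not past. The Fc receptor genes Fcgr3 and Fcgr4 were 1.79-fold and 1.70-fold higher, and the inhibitory receptor gene Pilra 1.85-fold. The lower one was Il1r2, a decoy receptor for interleukin 1 that neutrophils and activated regulatory T cells both make. It read 144 and 132 in Rptor-null pools, against 649 in WT (adjusted p = 0.00185). In the oxidative burst list, 2 of 7 genes were higher, 2 lower and 3 not past. Ncf1 and Rac2, of the oxidase complex, were 2.17-fold higher and 2.12-fold lower on their brightest probe sets. The kept probe sets of Ncf1 ranged from -0.06 to 1.12 and those of Rac2 from -1.09 to 0.05 on the log2 scale.

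The list of neutrophil transcription factors had 4 of 11 genes higher, 0 lower and 7 not past. The list was not limited to factors of the myeloid lineage, and Egr1 was 1 of the 4. Cebpb was 1.72-fold higher on its brightest probe set, with its 2 probe sets at 0.23 and 0.78 on the log2 scale. Spi1, which encodes PU.1, rose 1.53-fold, to 271 and 282 in Rptor-null pools against 176 in WT (adjusted p = 0.0297). Spi1 did not pass with every probe set fitted on its own (adjusted p = 0.0544). It has 1 kept probe set, and its log2 difference was 0.61 in both fits. Klf4 and Egr1, factors of monocytes and of stimulated cells, rose 1.45-fold and 1.58-fold, and Klf4 did not pass without a variance trend (adjusted p = 0.0553). Cebpa, which starts the granule programme, was chosen after its values were seen. It read 271 and 331 in Rptor-null pools and 239 in WT (adjusted p = 0.261). Of cytokines and chemokines that recruit neutrophils, 2 of 9 were higher, 0 lower and 7 not past. Il6 rose 1.94-fold, to 104 and 123 in Rptor-null pools against 50.7 in WT, and Il1b 1.70-fold, to 263 and 249.8 against 144 in WT.

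Markers of neutrophils and of other cell types were read on the same arrays. Of 12 tested neutrophil markers, 2 were higher, 0 lower and 10 not past, with a median of 0.34. The list holds the members Camp, Ngp, Ltf and Mmp8, and Mmp8 was 1 of the 2 higher genes. Of its 8 other genes, 1 was higher, and their median was 0.397. Leaving out Rptor-null replicate 2 gave a list median of 0.11, and the 60th percentile filter gave 0.076. The summed intensity of the list, members included, was 7536 and 8543 in Rptor-null pools and 8627 in the WT pool. Its brightest genes were the members Ngp (2501 and 2890 in Rptor-null pools, 3234 in WT) and Camp (2020 and 2210, against 2387). The sum is therefore no reading of neutrophil markers apart from the members. No marker of the list was listed at 0, and Ly6g had no probe set of its own. Stfa2l1, below the filter on level, still read 9.93 and 15.3 in Rptor-null pools and 8.61 in WT. A value above 0 therefore does not show expression. Csf3r, the receptor for G-CSF, read 427 and 655 in Rptor-null pools, against 419 in WT (adjusted p = 0.383). Cxcr2, the chemokine receptor of mature neutrophils, read 113 and 75.1 in Rptor-null pools, against 63.3 in WT (adjusted p = 0.227). Csf3r and Cxcr2 were chosen after their values were seen. Of the other markers tested beside the members, Pglyrp1 read 547 and 490 in Rptor-null pools, against 648 in WT (adjusted p = 0.141). Mmp9 also lay below WT on both Rptor-null arrays, and Cd177, Fpr2, Clec4d and Trem1 lay above it.

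Monocyte and macrophage markers were higher in 9 of 17 cases, lower in 0 and not past in 8, with a median of 0.61. Their summed intensity was 53029 and 59592 in Rptor-null pools and 38634 in the WT pool. The brightest gene in the sum, Lyz2, did not pass, at 16033 and 17432 in Rptor-null pools against 14972 in WT (adjusted p = 0.250). Mrc1 and Adgre1, which macrophages of the spleen make, were 2.26-fold and 1.88-fold higher. Hmox1 alone of the list lay below WT on both Rptor-null arrays, at 767 and 656 against 931 in WT (adjusted p = 0.0887). The brightest of 3 kept Vcam1 probe sets was 2.29-fold higher, and the log2 differences of all 3 lay between 0.50 and 1.20. Basophil and mast cell markers were higher in 6 of 9 cases, lower in 0 and not past in 3, with a median of 0.90 and summed intensities of 2791 and 3337 in Rptor-null pools against 1501 in WT. Neither list had a marker at 0, which does not show expression here. Their part in the values of the granule genes was not tested.

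The sorted cell type was read through 9 T cell and 8 Tfr markers. T cell markers had 4 lower, 0 higher and 5 not past, with a median of -0.25. Tfr markers had 5 lower, 0 higher and 3 not past, with a median of -0.94 and summed intensities of 8333 and 7686 in Rptor-null pools against 16462 in WT. No Tfr marker was at 0, which again does not show expression. Tnfrsf18, which encodes the sort marker GITR, was 2.54-fold lower, Pdcd1 2.46-fold and Ctla4 2.00-fold. The brightest of 3 kept Icos probe sets was 2.22-fold lower, and their log2 differences lay between -1.53 and -0.62. Foxp3, which defines regulatory T cells and was chosen after its values were seen, read 587 and 423 in Rptor-null pools, against 752 in WT (adjusted p = 0.0799).

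**Figure D3:**
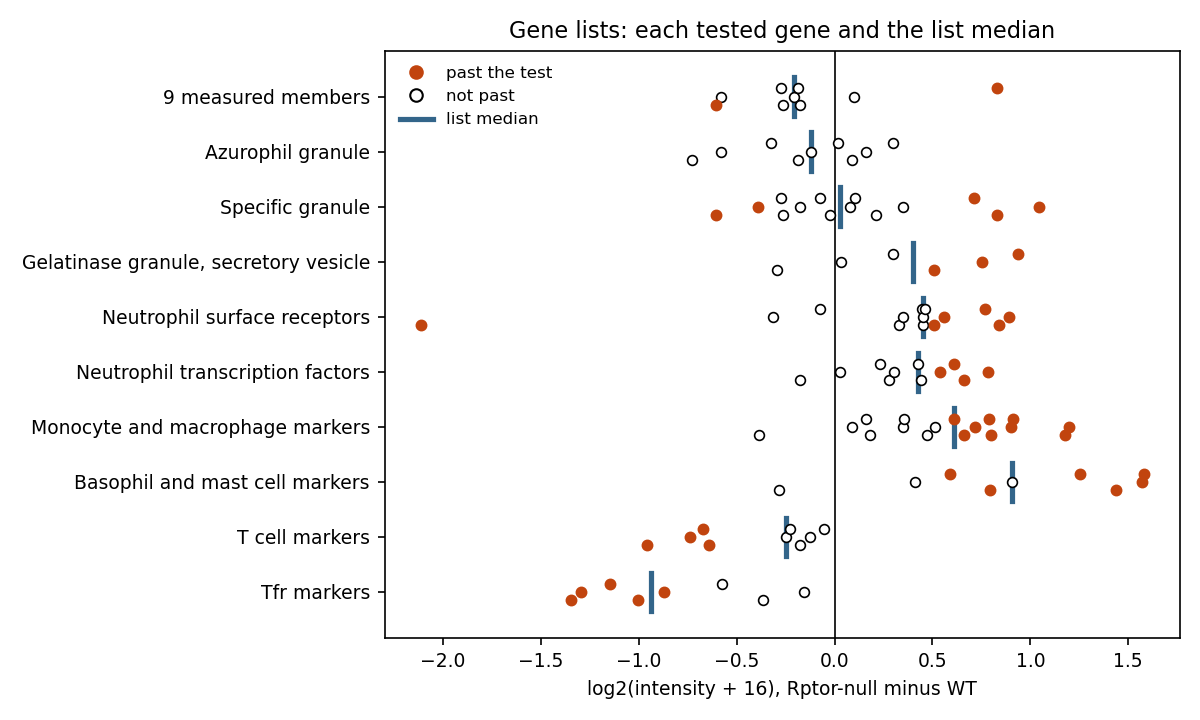
Difference of log2(intensity + 16), Rptor-null minus WT, for each tested gene of 10 groups, filled where past the test, with the median of each group as a bar. The members centre on -0.21 and the azurophil list on -0.12, while macrophage markers centre on 0.61, basophil markers on 0.90 and Tfr markers on -0.94. The azurophil list includes the members Mpo and Elane, and its 7 other genes have a median of 0.019.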

How the data were processed

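The authors deposited probe-set intensities on a linear scale for 45101 probe sets on 3 arrays, with medians of 55.0 and 54.9 on the Rptor-null arrays and 52.8 on the WT array. The submitters' processing notes name MAS5 without a version. The background correction and scaling target are not given in the sources used here. The number of arrays limits the precision. The labels call the Rptor-null pools biological replicates.

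By the platform annotation, 34945 probe sets had 1 symbol, 932 several and 9160 none, beside 64 controls. List symbols were matched exactly. The level of a probe set was the average of both group means, those above its 40th percentile (35.0 units) were kept, and the brightest stood for a gene. Tests used limma 3.58.1 under R 4.3.3 on log2(intensity + 16) (eBayes with a trend, two-sided; 1 residual and 6.39 prior degrees of freedom). The fit was tested on simulated data. The named genes were all members and, per list, up to 4 others, ranked by the smaller of their differences where both Rptor-null arrays lay on one side of WT. Members and lists were chosen with earlier results of these data known. The alternatives were 2 pseudocounts, 2 filters, 2 scalings, 2 treatments of probe sets, 2 variance priors and each Rptor-null array left out. Promoters came from RefSeq (GRCm38.p6), and 10 of 10 members matched.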

Additional observations from a re-analysis of the deposited data

How the results depend on the processing

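Under the 10 alternatives with a test, Mmp8 stayed past the threshold (adjusted p from 0.0104 to 0.0458) and so did Lcn2 (0.00749 to 0.0445), while the other 7 members never passed. The nearest of these were Mpo and S100a9 after median centring, with an adjusted p of 0.0664 and 0.0679. Elane fell below the 60th percentile filter and had no value there. With 1 Rptor-null array left out there was no test, and the log2 difference ran from 0.69 to 0.97 for Mmp8 and from -0.64 to -0.57 for Lcn2. No member or gene named by the rule changed direction under these alternatives. For the members, with 1 probe set each and both Rptor-null arrays on one side of WT, only the 2 scalings could turn a direction. The genes named by the rule were picked for lying on one side of WT, so most alternatives could not turn them. The genes chosen after their values were seen were not part of this check. Single kept probe sets of Cybb, Cfp, Ncf1, Rac2 and Xbp1 lay on the other side of WT from the brightest one. Their log2 differences were -0.28, -0.078, -0.063, 0.049 and -0.12. Of 45 called genes named by the rule beside the members, 10 lost the call in at least 1 alternative (Alox15, Cfp, Cst3, Cyba, Cybb, Fpr2, Klf4, Spi1, Stfa3 and Tlr4). Of those not called, 3 gained a call in at least 1 alternative (Lyz1, Padi2 and S100a13). Padi2, of the oxidative burst list, was higher in Rptor-null pools, with an adjusted p of 0.0501 in the main fit. Over all genes, 500 were higher and 1411 lower, against 301 and 769 without a variance trend and 539 and 766 after quantile normalization. After quantile normalization the medians of the lists of calgranulins with their receptors, other S100 genes and inhibitors turned, to 0.0015, 0.00059 and 0.0066 from values of -0.056, -0.11 and -0.015. Averaging probe sets turned the calgranulin list to 0.15, and without the first Rptor-null array the inhibitors turned to 0.038. Without the second, that of G-CSF and neutrophil chemokines turned, to -0.0051 from 0.083. After median centring that of the specific granule list turned, to -0.015 from 0.030. No paired analysis was possible because WT has 1 array and its label carries no replicate number. Only 1 WT array limits every difference.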

Other observations

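Other cell type lists were read for completeness. Eosinophil markers, cells that share a granulocyte precursor with neutrophils, had 3 genes tested, of which 1 was higher, 1 lower and 1 not past. The lower one was Prg2, the eosinophil major basic protein, at 25.1 and 20.9 in Rptor-null pools against 74.0 in WT. Both Rptor-null values lay under the level filter, which the gene passed through its WT value, so no fold is given. Alox15, a lipoxygenase, was 1.89-fold higher, at 69.4 and 97.5 in Rptor-null pools against 36.0 in WT (adjusted p = 0.0243). With 1 kept probe set, it did not pass with every probe set fitted on its own (adjusted p = 0.0522). Epx, the eosinophil peroxidase, lay below the filter on level.

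Dendritic cell markers had 1 of 6 genes lower, 0 higher and 5 not past, with a median of 0.30. The 60th percentile filter gave a median of 0.035. Of the genes not past, Flt3, Zbtb46, Siglech and Itgax lay above WT on both Rptor-null arrays and Ccr9 below. The lower one was Bst2, a restriction factor also induced by interferon (393 and 404 in Rptor-null pools, against 632 in WT; adjusted p = 0.0146). None of 7 erythroid and 8 B and plasma cell markers passed in either direction, with medians of 0.13 and -0.03. Leaving out the first or the second Rptor-null array gave 0.050 or 0.26 for the erythroid list, and 0.064 or -0.19 for the B and plasma cell list. Averaging probe sets gave 0.014 and -0.09. Jchain, the joining chain of polymeric antibodies, read 4508 and 4600 in Rptor-null pools, against 4694 in WT (adjusted p = 0.771).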
